A study of Homo sapiens with 24 samples.

Results

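The genes described here are those that nearly disappeared from wild-type THP1 macrophages when PTPN6 was knocked down. They had a mean of at least 5 CPM (counts of the gene per 1000000 counts of its library) in WT_shCTRL and at most 12.5% of that mean in WT_shPTPN6. Of the 10990 genes that reached 5 CPM in WT_shCTRL, 124 met the rule, or 1.13%, out of 60617 identifiers in the count table, of which 34700 had at least 1 count. PTPN6 was left out beforehand and would not have met it, since its own mRNA stayed at 22.4% of the WT_shCTRL mean. The opposite pattern, 5 CPM or more in WT_shPTPN6 with at most 12.5% of that in WT_shCTRL, was met by 27 genes. The genes were chosen by their measured CPM in WT_shPTPN6 and WT_shCTRL, so these values are given below as a description and carry no test. The CD33 knockout libraries were not used in the choice and provide the tested comparison.

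THP1 is a human monocytic leukaemia line, and all cells were turned into adherent macrophages with the phorbol ester PMA at 10 ng/ml for 48 h, followed by 48 h without it. The 4 groups were CD33 knockout cells with a hairpin against PTPN6 (CD33KO_shPTPN6, 5 libraries), CD33 knockout cells with the empty pLKO.1 vector (CD33KO_shCTRL, 6 libraries), wild-type cells with the hairpin (WT_shPTPN6, 6 libraries) and wild-type cells with the empty vector (WT_shCTRL, 6 libraries). Every group had therefore been exposed to virus made in HEK-293FT cells for 24 h, and transduced monocytes were selected in puromycin at 1 µg/ml. RNA was read with QuantSeq, which counts the 3′ ends of polyadenylated transcripts. A sixth CD33KO_shPTPN6 sample is labelled but has no column in the count table, so it was not analysed here. The labels name 1 hairpin sequence, do not say how many knockout clones were used, and do not say whether the libraries of a group came from separate cultures, so p-values measure the spread between these libraries, which may be technical. In these bulk samples fewer cells that express a gene and less of its RNA per cell cannot be told apart.

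PTPN6 encodes SHP-1, a tyrosine phosphatase of blood cells that is recruited by the phosphorylated cytoplasmic tails of inhibitory receptors and removes phosphate from activating kinases and their substrates. CD33 is one of those receptors, a sialic-acid binding lectin of the myeloid surface with an inhibitory motif in its tail. In macrophages this pairing is known for damping signals from immune receptors that activate Syk-family kinases.

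The hairpin was directed at a site of 21 bases in the PTPN6 transcript, on chromosome 12. The site is shown because the same hairpin was used in both lines; the capitals mark the bases that pair with positions 2 to 8 of the guide strand, the seed through which small RNAs can also reach partly matching messages.

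PTPN6 target: cgacatgctcatgGAGAACAt

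Among the GENCODE 29 transcripts of genes at 5 CPM or more in WT_shCTRL, the full site occurred in PTPN6 alone. Transcripts of other genes were not searched. The 7 seed-matching bases occurred in the 3′ untranslated region of 19 of the 117 members that have an annotated one, 16.2%, against 1806 of 10159 other genes at 5 CPM or more, 17.8%. The median length of the longest such region was 1470 bases in the members and 1710 bases in the other genes. The longest exact stretch shared with the site was 14 bases in a member, in MX1, and 15 bases in the other genes. What part of any change followed from the loss of SHP-1 and what part from the hairpin itself cannot be told apart, because both lines received the same hairpin and the controls received none.

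PTPN6 mRNA was measured at 4.64, 6.94, 7.06, 11.4 and 5.04 CPM in the CD33KO_shPTPN6 libraries, against 32.7 to 44.2 CPM (median 37.5) in CD33KO_shCTRL. In wild type it lay at 8.51 to 12.7 CPM (median 10.5) in WT_shPTPN6, against 37.6 to 53.95 CPM (median 47.2) in WT_shCTRL. The knockdown groups did not overlap their controls in either line, and in the knockout line the log2 fold change was -2.37 ± 0.17 (SE; edgeR quasi-likelihood test, adjusted p = 2.05e-24). CD33 mRNA averaged 22.2 ± 4.77 CPM in CD33KO_shPTPN6 and 20.2 ± 2.44 CPM in CD33KO_shCTRL, against 87.4 ± 5.51 CPM in WT_shPTPN6 and 47.3 ± 3.36 CPM in WT_shCTRL (SD; n = 5 for CD33KO_shPTPN6 and 6 for each other group, here and below). Log2 fold changes are edgeR estimates ± SE, and adjusted p-values are over all genes tested. The labels do not say which part of CD33 was deleted, so reads at its 3′ end do not check the knockout. Library totals ran between 2024032 and 2581042 counts in CD33KO_shPTPN6, 2048161 and 3749258 in CD33KO_shCTRL, 3318001 and 6269304 in WT_shPTPN6, and 4170191 and 5700712 in WT_shCTRL. A level of 5 CPM therefore stood for only 10.1 to 18.7 counts in the knockout libraries.

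The 124 genes comprised 117 protein-coding genes, 3 lincRNAs, 1 antisense transcript, 1 processed transcript, 1 processed pseudogene and 1 transcribed unitary pseudogene. They included neuropeptide precursors, bone and cartilage matrix proteins, developmental transcription factors, muscle proteins and receptors of neurons. In WT_shCTRL 33 of them lay between 5 and 10 CPM, 75 between 10 and 100 CPM and 16 at 100 CPM or more. Their level in wild type was lower with the hairpin by 8.004-fold or more, with a median of 11.3-fold, and 44 genes were lower by at least 16-fold. Summed over all 124, they gave 606 to 671 CPM in WT_shPTPN6, against 8707 to 8963 CPM in WT_shCTRL. The replicates of WT_shCTRL, where the rule requires the genes to be high, were close, with a median coefficient of variation of 12.3%. Where few counts were left the relative spread was wider, as for MEPE at 1.10 ± 0.984 CPM in CD33KO_shPTPN6. The rule cut through a continuum, since HACD1, BIK and SYNPO2 lay just inside the ratio at 12.49%, 12.45% and 12.36%, while CTSG, KRT9 and MAP3K7CL lay just outside at 12.53%, 12.6% and 12.7%. At the floor, HECW2 at 5.01 CPM and APLNR at 5.05 CPM were members, and COLQ at 4.98 CPM and ARAP2 at 4.86 CPM were not.

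**Figure D1:**
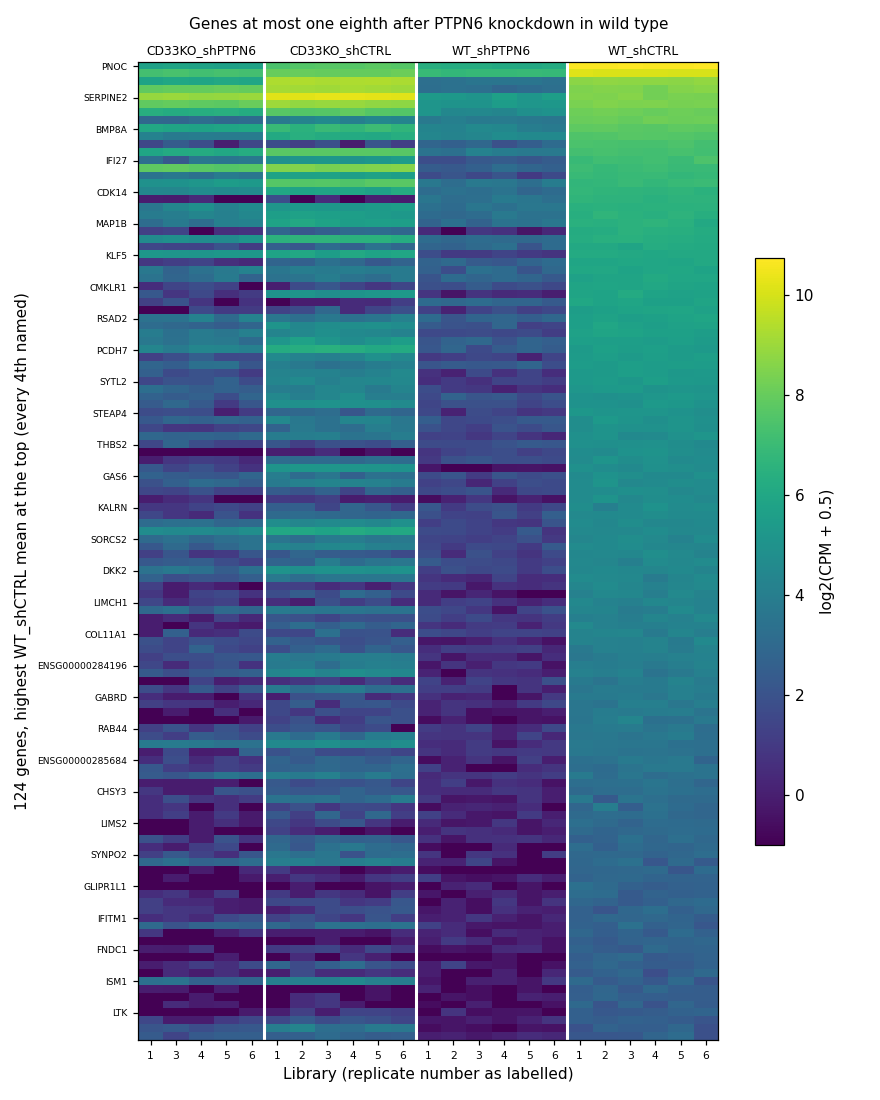
Each row is 1 of the 124 genes, ordered by mean level in WT_shCTRL, each column is 1 library labelled with its replicate number, and colour gives log2(CPM + 0.5). Each of the 124 rows is darker in WT_shPTPN6 than in WT_shCTRL by the rule, where BMP8B, PNOC and SERPINE2 have the highest remaining means, and in CD33KO_shCTRL 48 genes have a mean under 5 CPM.

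The tested question was whether the same genes respond to the hairpin when CD33 is absent. All 124 genes passed the filter on low counts, which any group could satisfy and which WT_shCTRL satisfied for them. In CD33KO_shPTPN6 against CD33KO_shCTRL, 90 of the 124 were lower at an adjusted p under 0.05 and 0 were higher in edgeR, while 34 did not pass. At an unadjusted p under 0.05, 1 member was higher, HTRA1, and DESeq2 called 0 higher. Over all 13098 genes tested, 21.6% were called lower and 20.5% were called higher, or 27.6% and 15.3% when library totals were used without TMM scaling. A call with at least a 2-fold fall was made for 75 members, against 6.07% of all genes tested. In 75 members every CD33KO_shPTPN6 library lay below every CD33KO_shCTRL library, which held for 15.9% of all genes tested, and the opposite held for 0 members and 8.82% of all genes. The median log2 fold change of the members was -1.38, against -0.01 for all genes tested, and 119 of the 124 were below 0.

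The log2 fold change was smaller in size in the knockout line for all 124 genes, a comparison in which the rule had fixed the wild-type side at 8-fold or more. The quartiles of the members' log2 fold changes were -1.997 and -0.82, and 8 members reached -3 or lower. Applied to the knockout line, the same rule was met by 16 of 10850 genes, 0.147%, and 4 of those were members: MGP, DMP1, ECEL1 and NRAP. The 4 shared genes are 3.23% of the wild-type list and 25% of the knockout list. Summed over the members, the level was 2185 to 2297 CPM in CD33KO_shPTPN6, against 5858 to 6035 CPM in CD33KO_shCTRL, with no overlap of libraries.

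**Figure D2:**
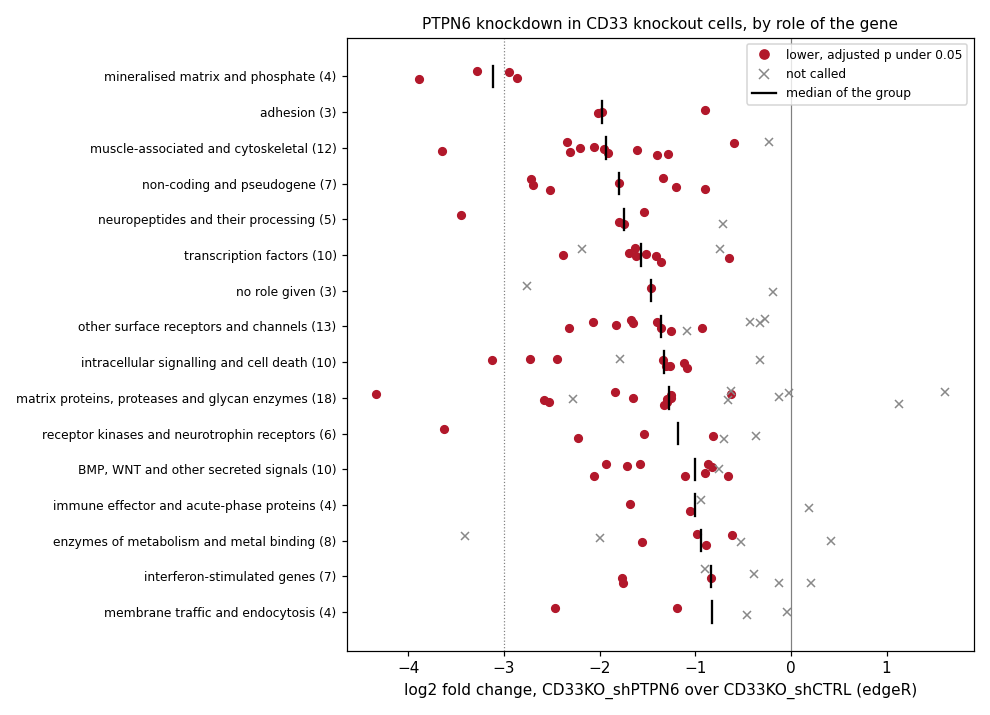
Each point is 1 of the 124 genes placed by its edgeR log2 fold change in CD33KO_shPTPN6 over CD33KO_shCTRL, in rows by role with the number of genes in brackets; red circles passed an adjusted p of 0.05, grey crosses did not, black bars are row medians and the dotted line marks -3, the 8-fold of the rule. All 4 genes of mineralised matrix lie at -2.86 or lower, and all 90 red circles lie left of 0.

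The role group with the lowest median in the knockout line, -3.11, was that of mineralised tissue, where all 4 members were lower, with log2 fold changes between -3.89 and -2.86. MGP, the matrix Gla protein that inhibits calcification of cartilage and vessels, lies at chr12:14881181-14885926 on the minus strand (GRCh38, GENCODE 29). MGP stood at 54.8, 63.3, 58.6, 68.2 and 60.4 CPM in the CD33KO_shPTPN6 libraries, against 611 to 654 CPM (median 625.4) in CD33KO_shCTRL. In wild type it lay at 9.25 to 11.2 CPM (median 10.6) in WT_shPTPN6, against 408 to 457 CPM (median 433) in WT_shCTRL. The knockout controls were thus the highest of the 4 groups, no groups overlapped, and the fall in the knockout line was the one with the smallest adjusted p of all members (log2 fold change -3.28 ± 0.06, adjusted p = 1.28e-73).

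DMP1 and MEPE are acidic phosphoproteins of bone and dentin that sit 157050 bp apart on chromosome 4, DMP1 at chr4:87650307-87664361. DMP1 was at 4.18, 1.30, 2.49, 0.988 and 1.55 CPM in CD33KO_shPTPN6, against 27.1 to 40.7 CPM (median 32.8) in CD33KO_shCTRL, and at 0.293 to 1.28 CPM (median 0.859) in WT_shPTPN6, against 52.5 to 70.8 CPM (median 55.9) in WT_shCTRL. Its log2 fold change in the knockout line was -3.89 ± 0.22 (adjusted p = 4.12e-31). MEPE was rarer, at 0.928, 0.434, 1.66, 2.47 and 0 CPM in CD33KO_shPTPN6, against 4.12 to 12.4 CPM (median 8.04) in CD33KO_shCTRL, a log2 fold change of -2.86 ± 0.41 (adjusted p = 2.63e-09). Neither gene exceeded 4.18 CPM in any library with the hairpin, and the groups of the knockout line did not overlap. PHEX, the peptidase that degrades such phosphoproteins and regulates phosphate, had the same direction (-2.94 ± 0.65, adjusted p = 7.82e-05). The wider family of bone phosphoproteins was a list added once the members were known. In it 4 of 4 tested genes were lower in the knockout line, against 21.6% of all genes tested. Besides DMP1 and MEPE these were IBSP, bone sialoprotein, at -1.69, and SPP1, osteopontin, at -0.25.

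NRAP, an actin-anchoring protein of striated muscle at chr10:113588716-113664127, was 141-fold lower with the hairpin in wild type, where 5 counts were left in all 6 libraries together. NRAP was at 4.18, 2.17, 3.32, 1.98 and 1.16 CPM in CD33KO_shPTPN6, against 30.96 to 36.6 CPM (median 33.96) in CD33KO_shCTRL. In wild type it was at 0 to 0.319 CPM (median 0.256) in WT_shPTPN6, against 23.3 to 29.5 CPM (median 26.5) in WT_shCTRL. The control groups of the 2 lines were separated only narrowly, while both knockdown groups lay far below, with a log2 fold change of -3.64 ± 0.21 in the knockout line (adjusted p = 3.64e-30). Of the 12 members grouped as muscle-associated or cytoskeletal, 11 were lower in the knockout line, with a median of -1.93 over the 12. MB, myoglobin, averaged 15.03 ± 1.51 CPM in CD33KO_shPTPN6 and 73.9 ± 6.58 CPM in CD33KO_shCTRL (log2 fold change -2.21 ± 0.11, adjusted p = 1.9e-35). HOMER2, a scaffold that ties glutamate receptors to calcium stores, was at 10.7, 12.6, 9.55, 14.3 and 11.6 CPM in CD33KO_shPTPN6, against 46.9 to 56.1 CPM (median 52.98) in CD33KO_shCTRL. MAP1B, a microtubule-binding protein of neurons, and DYSF, dysferlin, which reseals muscle membranes, were also lower, with log2 fold changes of -1.91 ± 0.17 and -1.29 ± 0.24. The exception was LIMCH1, a non-muscle myosin activator, at 1.44 ± 0.798 CPM in CD33KO_shPTPN6 and 1.64 ± 1.07 CPM in CD33KO_shCTRL, where it was already low.

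PNOC, the precursor of the opioid-like peptide nociceptin, had the highest level of all members in WT_shCTRL. It lies on chromosome 8 and was counted at 52.5, 57.7, 53.6, 50.9 and 53.5 CPM in CD33KO_shPTPN6, against 172 to 217 CPM (median 199) in CD33KO_shCTRL. In wild type it was at 66.9 to 82.3 CPM (median 74.6) in WT_shPTPN6, against 1614 to 1704 CPM (median 1639.8) in WT_shCTRL. It was lower with the hairpin in the knockout line too (log2 fold change -1.80 ± 0.07, adjusted p = 1.35e-44), but there the control already stood at 11.95% of the wild-type control. PENK, the enkephalin precursor, averaged 2.31 ± 0.702 CPM in CD33KO_shPTPN6 and 6.73 ± 2.18 CPM in CD33KO_shCTRL, against 6.91 ± 2.05 CPM in WT_shPTPN6 and 68.2 ± 6.65 CPM in WT_shCTRL. ECEL1, a membrane peptidase of neurons, and ENHO, the precursor of adropin, were also lower in the knockout line, with log2 fold changes of -3.44 ± 0.43 and -1.74 ± 0.45. TAC4, a tachykinin precursor, had 1 count in all 6 WT_shPTPN6 libraries together, against 196 counts, or 3.94 to 8.15 CPM (median 7.22), in WT_shCTRL. TAC4 was at 0, 0, 0.415, 0 and 0.775 CPM in CD33KO_shPTPN6 and 0 to 1.46 CPM (median 0.447) in CD33KO_shCTRL, too few counts to show a difference. The opioid precursors were a list added once the members were known. Of the 3 tested, PNOC and PENK were lower in the knockout line and 0 were higher, against 21.6% and 20.5% of all genes tested.

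Among the 10 secreted signals, 9 were lower in the knockout line, with a median of -1.003. BMP8B, a bone morphogenetic protein, was at 148, 164, 145, 158 and 151 CPM in CD33KO_shPTPN6, against 249 to 272 CPM (median 253) in CD33KO_shCTRL. In wild type it was at 109.8 to 119 CPM (median 117) in WT_shPTPN6, against 1029 to 1136 CPM (median 1069) in WT_shCTRL. The groups did not overlap, and the lines differed more in their controls than after knockdown. The log2 fold change in the knockout line was -0.65 ± 0.05 (adjusted p = 9.48e-20). BMP8A, its near-identical neighbour 231247 bp away on chromosome 1, was at 59.9 ± 4.86 CPM in CD33KO_shPTPN6 and 112 ± 15.5 CPM in CD33KO_shCTRL, and reads could be split between the copies. BMP8B also overlaps OXCT2 on its own strand and PPIE on the other, which leaves its assignment uncertain. BMP4 was lower too (log2 fold change -0.90 ± 0.20, adjusted p = 0.000111). Over all BMP ligands tested, a list added once the members were known, 6 of 6 were lower in the knockout line, against 21.6% of all genes tested. Of these 6, 3 were members. In wild type 4 of the 6 were lower and 2 higher, BMP2 at 1.51 and BMP6 at 0.28. BMP ligands act through SMAD proteins to induce the ID genes, which encode inhibitors of basic helix-loop-helix factors. Of the ID genes, also a list added once the members were known, 3 of 3 tested were lower in the knockout line. Their log2 fold changes were -2.38 ± 0.09 for ID3, a member, -2.18 ± 0.10 for ID1 and -0.96 ± 0.07 for ID2. Whether the BMP ligands had a part in these changes was not tested. ID3 itself stood at 30.2, 31.2, 34.9, 44.5 and 39.1 CPM in CD33KO_shPTPN6, against 178 to 210.2 CPM (median 199) in CD33KO_shCTRL, and at 8.51 to 14.7 CPM (median 12.3) in WT_shPTPN6, against 106 to 128 CPM (median 115) in WT_shCTRL.

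The other secreted signals came from several pathways. GPC3, a glypican that binds growth factors at the cell surface, averaged 6.70 ± 1.28 CPM in CD33KO_shPTPN6 and 27.2 ± 4.20 CPM in CD33KO_shCTRL (log2 fold change -1.93 ± 0.18). DKK2, a secreted modulator of WNT receptors, averaged 9.39 ± 2.77 CPM in CD33KO_shPTPN6 and 30.2 ± 1.59 CPM in CD33KO_shCTRL, and 21.3 ± 1.54 CPM in WT_shCTRL. TNFSF18, the ligand of the T cell receptor GITR, had a log2 fold change of -2.06 ± 0.24, and ANGPT1, the ligand of the endothelial kinase TIE2, one of -1.71 ± 0.43. SEMA6A, a transmembrane guidance cue, was the secreted or shed signal that did not pass, at 2.47 ± 1.31 CPM in CD33KO_shPTPN6 and 4.56 ± 1.39 CPM in CD33KO_shCTRL (adjusted p = 0.0611).

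Of the 10 transcription factors, 8 were lower in the knockout line, with a median of -1.57 over the 10. GFI1, a repressor of haematopoietic progenitors, averaged 69.3 ± 6.82 CPM in CD33KO_shPTPN6 and 211 ± 3.43 CPM in CD33KO_shCTRL, against 13.1 ± 2.84 CPM in WT_shPTPN6 and 150.5 ± 6.38 CPM in WT_shCTRL. Its log2 fold change in the knockout line was -1.51 ± 0.07 (adjusted p = 8.71e-37). KLF5, a zinc-finger activator of epithelial and smooth muscle cells, had a far higher level after knockdown in the knockout line than in wild type. KLF5 was at 36.7, 33.8, 32.8, 36.1 and 36.4 CPM in CD33KO_shPTPN6, against 45.1 to 68.2 CPM (median 58.1) in CD33KO_shCTRL, and at 1.21 to 2.87 CPM (median 1.53) in WT_shPTPN6, against 63.9 to 70.8 CPM (median 67.5) in WT_shCTRL. The difference in the knockout line was nonetheless called (log2 fold change -0.65 ± 0.10, adjusted p = 7.51e-08), and the knockout control overlapped the wild-type control. EOMES, a T-box factor of cytotoxic lymphocytes, BHLHE22, a neuronal helix-loop-helix factor, and HEY2, a Notch target, were lower at -1.62 ± 0.16, -1.63 ± 0.10 and -1.35 ± 0.20. The KLF genes were a list added once the members were known. Of the 13 tested, 3 were lower in the knockout line and 5 higher, against 21.6% and 20.5% of all genes tested. KLF12 was among the lower, at -1.41, and KLF16 among the higher, at 0.50. HAND2, a factor of heart and sympathetic neurons, differed in its starting level, with 0.464, 0.867, 1.25, 0 and 0 CPM in CD33KO_shPTPN6 and 0.429 to 1.81 CPM (median 0.953) in CD33KO_shCTRL, against 0.160 to 1.38 CPM (median 0.429) in WT_shPTPN6 and 21.8 to 32.3 CPM (median 25.1) in WT_shCTRL. HAND2 was thus near 0 in 3 of the 4 groups, and its difference within the knockout line did not pass (adjusted p = 0.409). EN1, a homeobox factor of the midbrain, was also low there, at 0.0831 ± 0.186 CPM in CD33KO_shPTPN6 and 0.598 ± 0.746 CPM in CD33KO_shCTRL, and 7.65 ± 0.739 CPM in WT_shCTRL.

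Matrix proteins, proteases and enzymes of glycans made up the largest role group, with 18 members, of which 11 were lower in the knockout line. SERPINE2, an extracellular inhibitor of thrombin and plasminogen activators, was the member with the highest mean in both knockout groups. SERPINE2 was at 465.6, 500.0, 459, 476 and 496 CPM in CD33KO_shPTPN6, against 1172 to 1271 CPM (median 1208) in CD33KO_shCTRL, and at 33.4 to 51.00 CPM (median 39.6) in WT_shPTPN6, against 297 to 393 CPM (median 346) in WT_shCTRL. Even after knockdown the knockout line therefore stayed above the wild-type control, although the difference within the line was called (log2 fold change -1.26 ± 0.06, adjusted p = 1e-30). MMP1, the interstitial collagenase at chr11:102789920-102798160, had the same arrangement, at 229, 242, 213, 195 and 208 CPM in CD33KO_shPTPN6, against 323 to 388 CPM (median 362) in CD33KO_shCTRL, and at 4.40 to 8.68 CPM (median 5.54) in WT_shPTPN6, against 114 to 137 CPM (median 125) in WT_shCTRL. MMP13, another collagenase 144835 bp away, was at 0, 0, 0, 0 and 0.387 CPM in CD33KO_shPTPN6, against 0.903 to 3.73 CPM (median 2.52) in CD33KO_shCTRL, and had the lowest log2 fold change of all members (-4.34 ± 0.80, adjusted p = 3.22e-06). That value rests on 1 count in CD33KO_shPTPN6, against 38 in CD33KO_shCTRL, and on the summed counts the level was 29.5-fold lower, with an exact 95% interval of 4.98 to 1194 that covers counting error only. The matrix metalloproteinases were also a list added once the members were known. Of the 15 tested, 9 were lower and 2 higher in the knockout line, against 21.6% and 20.5% of all genes tested. MMP7 was at -1.88, MMP3 at -2.31 and MMP9, a gelatinase, at 0.87. CEMIP, a hyaluronan-degrading protein, averaged 78.5 ± 4.38 CPM in CD33KO_shPTPN6 and 205 ± 17.7 CPM in CD33KO_shCTRL, and its relative CEMIP2 17.4 ± 2.80 CPM and 45.8 ± 4.97 CPM in the same groups. LTBP1, which stores latent TGF-beta in the matrix, and LAMA3, a laminin chain of epithelial basement membranes, were lower at -2.58 ± 0.19 and -2.53 ± 0.35. The 7 that did not pass were HTRA1, THBS2, COL11A1, SPINK2, B3GNT7, PI16 and LRRC15, of which SPINK2 had the highest mean in CD33KO_shCTRL, 5.06 CPM. HTRA1, a secreted serine protease, averaged 1.55 ± 1.27 CPM in CD33KO_shPTPN6 and 0.723 ± 0.598 CPM in CD33KO_shCTRL (log2 fold change 1.13 ± 0.55, adjusted p = 0.0881). It was called higher in 2 refits, at an adjusted p of 0.0352 without CD33KO_shCTRL replicate 6 and 0.0272 without CD33KO_shPTPN6 replicate 5.

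**Figure D3:**
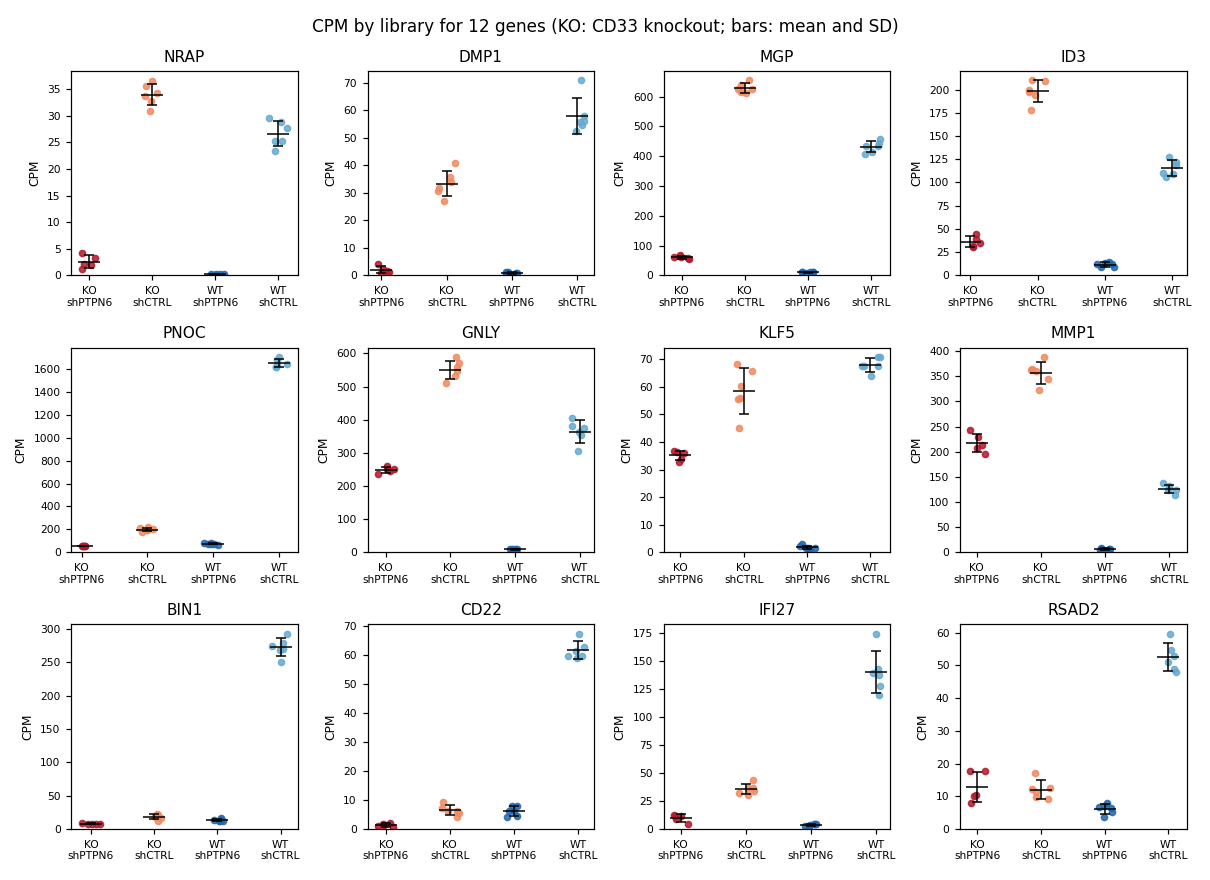
Each panel shows the CPM of 1 gene on a linear axis from 0, with 1 point per library and black bars for the mean and SD; KO stands for CD33 knockout, with 5 libraries for KO shPTPN6 and 6 for each other group. MGP, NRAP and ID3 have knockout controls above the wild-type controls, PNOC, BIN1, CD22 and RSAD2 have knockout controls far below them, and KLF5, GNLY and MMP1 keep levels in KO shPTPN6 that WT shPTPN6 does not reach.

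Surface receptors and channels formed 2 role groups, 6 receptor kinases and neurotrophin receptors, of which 4 were lower in the knockout line, and 13 others, of which 9 were lower. NGFR, a low-affinity receptor for neurotrophins, averaged 1.51 ± 0.796 CPM in CD33KO_shPTPN6 and 4.51 ± 2.19 CPM in CD33KO_shCTRL, against 0.342 ± 0.338 CPM in WT_shPTPN6 and 19.5 ± 2.68 CPM in WT_shCTRL. AXL, a receptor kinase for apoptotic cells bridged by GAS6, was at 1.86, 0.434, 0.831, 0.494 and 0 CPM in CD33KO_shPTPN6 and 0.533 to 1.95 CPM (median 1.31) in CD33KO_shCTRL, against 0.346 to 1.60 CPM (median 1.15) in WT_shPTPN6 and 17.2 to 24.8 CPM (median 20.5) in WT_shCTRL. AXL was thus low in every group but WT_shCTRL and was not called in the knockout line (log2 fold change -0.70 ± 0.59, adjusted p = 0.362), whereas its ligand GAS6, also a member, was called (-0.86 ± 0.24, adjusted p = 0.00176). The TAM receptors and ligands were a list added once the members were known. Of the 5, 3 were lower and 0 higher in the knockout line, against 21.6% and 20.5% of all genes tested, with TYRO3 at -0.83. TIMD4, another receptor for apoptotic cells through phosphatidylserine, averaged 3.001 ± 2.21 CPM in CD33KO_shCTRL and 53.3 ± 5.39 CPM in WT_shCTRL.

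GRM4, a metabotropic glutamate receptor, was at 1.86, 2.17, 0, 0.988 and 1.16 CPM in CD33KO_shPTPN6, against 4.12 to 8.002 CPM (median 6.71) in CD33KO_shCTRL, and at 0 to 1.38 CPM (median 0.761) in WT_shPTPN6, against 74.1 to 91.5 CPM (median 79.01) in WT_shCTRL. CD22, an inhibitory lectin of B cells from the same Siglec family as CD33 and itself a partner of SHP-1, was at 1.39, 1.73, 2.08, 0.988 and 0.775 CPM in CD33KO_shPTPN6, against 4.27 to 9.48 CPM (median 6.27) in CD33KO_shCTRL. In wild type CD22 was at 4.07 to 7.96 CPM (median 6.27) in WT_shPTPN6, against 59.1 to 67.4 CPM (median 60.7) in WT_shCTRL. The knockout control thus overlapped the wild-type knockdown, and CD22 was lower again with the hairpin (log2 fold change -2.07 ± 0.34, adjusted p = 1.66e-07). Among the 9 Siglecs tested, 1 was lower in the knockout line and 2 were higher, against 21.6% and 20.5% of all genes tested. The lower was CD22, and the higher were SIGLEC16 at 1.34 and SIGLEC11 at 1.64. APLNR, the apelin receptor, and NPR3, the clearance receptor for natriuretic peptides, were lower at -1.67 ± 0.27 and -1.40 ± 0.18. KCNMA1, a calcium-activated potassium channel, was at 9.01 ± 3.01 CPM in CD33KO_shPTPN6 and 11.5 ± 2.41 CPM in CD33KO_shCTRL and did not pass (adjusted p = 0.304).

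BIN1, the membrane-bending adaptor amphiphysin 2, was the most abundant of the 4 members of membrane traffic in WT_shCTRL. BIN1 was at 6.96, 6.94, 8.72, 7.41 and 8.14 CPM in CD33KO_shPTPN6, against 12.7 to 23.02 CPM (median 18.9) in CD33KO_shCTRL, and at 11.6 to 16.1 CPM (median 12.9) in WT_shPTPN6, against 250.9 to 293 CPM (median 273) in WT_shCTRL. The groups of the knockout line did not overlap (log2 fold change -1.19 ± 0.17, adjusted p = 1.25e-09), yet both lay at or near the wild-type knockdown level and more than 10-fold below WT_shCTRL. SYTL2, a RAB27 effector of granule secretion, was lower at -2.46 ± 0.21, while RAB44, a large RAB GTPase, and SNAP91, a clathrin assembly protein of synapses, did not pass. Of 23 tested genes of BAR domains and clathrin endocytosis, 6 were lower and 5 higher in the knockout line, with a median of 0.05. Over all genes tested 21.6% were lower and 20.5% higher, so the list was near these shares. CLTB, a clathrin light chain, was at -0.47, and SNX9 and AP2S1, which act at clathrin-coated pits, were at 1.66 and 0.70.

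GNLY encodes granulysin, a pore-forming protein of cytotoxic granules. GNLY was at 237, 252, 250.5, 261 and 246 CPM in CD33KO_shPTPN6, against 512 to 588 CPM (median 552) in CD33KO_shCTRL, and at 6.78 to 9.98 CPM (median 9.05) in WT_shPTPN6, against 306 to 406 CPM (median 368) in WT_shCTRL. The reduction in the knockout line was to less than the wild-type control but remained far above the wild-type knockdown (log2 fold change -1.06 ± 0.05, adjusted p = 6.92e-34). SAA1, an acute-phase protein, and FCGBP, a mucin-like protein, were among the 20 members highest in WT_shCTRL and were the 2 of those 20 that were not called. FCGBP averaged 2.56 ± 1.53 CPM in CD33KO_shPTPN6 and 2.31 ± 1.20 CPM in CD33KO_shCTRL, against 5.92 ± 1.66 CPM in WT_shPTPN6 and 163 ± 8.36 CPM in WT_shCTRL. SAA1 averaged 0.346 ± 0.352 CPM in CD33KO_shPTPN6 and 0.801 ± 1.10 CPM in CD33KO_shCTRL, against 10.6 ± 1.92 CPM in WT_shPTPN6 and 95.7 ± 4.03 CPM in WT_shCTRL, and its close copies may share reads. Both were nearly absent from the knockout line with either vector.

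Of the 7 interferon-stimulated members, 3 were called lower in the knockout line and 4 were not. IFI27, a mitochondrial protein strongly induced by type I interferon, was at 9.28, 4.34, 12.05, 11.4 and 12.4 CPM in CD33KO_shPTPN6, against 30.3 to 44.2 CPM (median 35.3) in CD33KO_shCTRL, and at 2.87 to 4.88 CPM (median 4.12) in WT_shPTPN6, against 119.8 to 174 CPM (median 139) in WT_shCTRL. Its log2 fold change in the knockout line was -1.76 ± 0.16 (adjusted p = 2.93e-15). RIGI, the cytosolic RNA sensor, and USP18, the enzyme that removes ISG15 and dampens the receptor, were also lower, at -0.83 ± 0.13 and -1.77 ± 0.21. RSAD2, the antiviral enzyme viperin, was at 10.2, 10.4, 17.9, 7.91 and 17.8 CPM in CD33KO_shPTPN6 and 9.15 to 17.2 CPM (median 11.7) in CD33KO_shCTRL, and these groups overlapped (log2 fold change 0.22 ± 0.18, adjusted p = 0.365). In wild type RSAD2 was at 3.82 to 7.98 CPM (median 6.59) in WT_shPTPN6, against 47.9 to 59.7 CPM (median 52.00) in WT_shCTRL. CMPK2, a mitochondrial nucleotide kinase whose gene overlaps RSAD2 on the opposite strand, was at 11.9 ± 4.44 CPM in CD33KO_shPTPN6 and 13.9 ± 1.23 CPM in CD33KO_shCTRL (log2 fold change -0.12 ± 0.19). MX1 and IFITM1, both antiviral effectors, had means under 3 CPM in both knockout groups.

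Of 45 tested genes of the type I interferon response, 7 of them members, 18 were lower and 0 higher in the knockout line. Over all genes tested 21.6% were lower and 20.5% higher. The median log2 fold change of the 45 was -0.20, against -0.01 for all genes tested. At an unadjusted p under 0.05, 2 of the 45 were higher in edgeR, and DESeq2 called 18 lower and 0 higher. With the members left out, since the rule fixed their fall in wild type, 15 of the 38 others were lower in the knockout line, with a median of -0.20. The same 38 were all lower in WT_shPTPN6 against WT_shCTRL, with a median of -1.75, where 30.4% of all genes tested were called lower. The interferon-stimulated response element, a short promoter motif of genes induced by interferon, was searched, as 2 copies of GAAA with any 2 bases between them on either strand, in the 300 bases around the annotated start, 250 before it and 50 after it, that RefSeq gives for 92 of the members (GRCh38.p14). It was found in 4 of the 92, 4.35%, namely IFI27, IFITM1, MX1 and SYNPO2, against 2.84% of 8656 genes at 5 CPM or more and 3.65% of all 27305 promoters. Bases 140 before to 20 after the start of IFI27 (chr14:94110596-94110755, plus strand) and IFITM1 (chr11:313900-314059, plus strand) are shown because each holds 2 such matches, in capitals.

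IFI27: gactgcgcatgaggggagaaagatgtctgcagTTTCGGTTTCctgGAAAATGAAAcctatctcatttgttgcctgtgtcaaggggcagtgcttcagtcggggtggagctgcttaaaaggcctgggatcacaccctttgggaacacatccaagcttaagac

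IFITM1: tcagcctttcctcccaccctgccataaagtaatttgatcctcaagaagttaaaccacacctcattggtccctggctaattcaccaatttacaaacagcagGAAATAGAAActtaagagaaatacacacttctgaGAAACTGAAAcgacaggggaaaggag

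The matches begin 108 and 95 bases before the start in IFI27 and 40 and 6 bases before it in IFITM1. Other short motifs were searched in the same windows. The AP-1 letters TGANTCA were found in 8.7% of the members, against 4.27% of the genes at 5 CPM or more and 7.76% of all promoters. TATAAA was found in 13% of the members, against 5.23% and 12% of the same 2 sets, so on both motifs the members were nearer to promoters in general than to those of expressed genes. TTCNNNGAA, the core bound by STAT dimers, was found in 9.78%, against 6.13% and 7.88%, and GGCGCC, the GC-rich letters bound by BMP-activated SMADs, in 26.1%, against 31.8% and 19%. CACGTG was found in 4.35%, against 10.6% and 7.43%, TGCGCNC, the metal response core, in 20.7%, against 32.2% and 20%, and TGACGTCA in 1.09%, against 3.45% and 1.98%. For the serum response element only a fixed spelling was searched, not its variants. That spelling was found in 0 of the 92, against 0.0462% and 0.0366% of the same 2 sets. So rare a spelling would seldom be met among 92 promoters, so nothing is read from the 0.

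Enzymes and metal-binding proteins contributed 8 members, 4 of them lower in the knockout line. MT2A, a metallothionein that binds zinc and copper, averaged 239 ± 16.95 CPM in CD33KO_shPTPN6 and 471 ± 31.95 CPM in CD33KO_shCTRL, against 35.9 ± 4.64 CPM in WT_shPTPN6 and 339 ± 13.6 CPM in WT_shCTRL (log2 fold change in the knockout line -0.89 ± 0.06, adjusted p = 3.14e-28). The metallothioneins, whose near-identical sequences may share reads, were a list added once the members were known. Of the 4 tested, MT2A included, 3 were lower in the knockout line and 0 higher, against 21.6% and 20.5% of all genes tested. STEAP4, a metalloreductase, and CYP26B1, which degrades retinoic acid, were lower at -1.56 ± 0.31 and -0.62 ± 0.23. The call on CYP26B1 was lost without CD33KO_shPTPN6 replicate 4 (adjusted p = 0.116). BBOX1, the last enzyme of carnitine synthesis, had 0 counts in every CD33KO_shPTPN6 library and 0.353 ± 0.343 CPM in CD33KO_shCTRL, against 2.19 ± 0.607 CPM in WT_shPTPN6 and 27.5 ± 3.47 CPM in WT_shCTRL.

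Intracellular signalling and cell death held 10 members, of which 8 were lower. CDK14, a cyclin-dependent kinase active in WNT signalling, averaged 22.8 ± 2.16 CPM in CD33KO_shPTPN6 and 60.7 ± 6.96 CPM in CD33KO_shCTRL, with a log2 fold change of -1.31 ± 0.11. DIRAS2, a small GTPase of the brain, PITPNM3, a phosphatidylinositol transfer protein, and KLHL13, a substrate adaptor of a ubiquitin ligase, were lower at -2.45 ± 0.23, -2.73 ± 0.34 and -3.12 ± 0.57. BIK, a BH3-only activator of cell death, was lower at -1.26 ± 0.27. The 3 adhesion proteins, the protocadherins PCDH7 and PCDH20 and the desmosomal DSG2, were all lower, with PCDH7 at 18.3 ± 2.58 CPM in CD33KO_shPTPN6 and 76.6 ± 6.72 CPM in CD33KO_shCTRL (adjusted p = 3.88e-29). All 7 non-coding or pseudogene members were lower as well, with log2 fold changes between -2.72 and -0.89. ERICD, a long non-coding RNA, averaged 24.3 ± 2.75 CPM in CD33KO_shPTPN6 and 65.5 ± 5.98 CPM in CD33KO_shCTRL, against 2.46 ± 1.16 CPM in WT_shPTPN6 and 22.5 ± 1.70 CPM in WT_shCTRL.

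In position the members were spread over the genome, and 25 of them had another member within 1 Mb. The matching share for other genes was not computed, so nothing is read from this count. Besides CMPK2 with RSAD2, MMP1 with MMP13, DMP1 with MEPE and BMP8A with BMP8B, close pairs included KLF5 with KLF12, 608547 bp apart, and BIN1 with LIMS2, 531026 bp apart. CDK14 overlaps the antisense transcript ENSG00000223969, which had a log2 fold change of -2.70 ± 0.22. Of all genes at 5 CPM or more, 1.13% were members. Per chromosome, the highest shares were 2.97% on chromosome 13, with 6 genes, 2.58% on chromosome 4, with 10, and 2.06% on chromosome 2, with 15. Chromosome 16, with 1 gene, was at 0.202%. These counts are small, and nothing is read from the shares. In all 23 members overlap another gene at 1 CPM or more in the annotation, 6 of them one on the same strand and 19 one on the other. Here too the share for other genes was not computed. Whether counting used the strand is not given in the sources used here, and reads of such pairs cannot be told apart.

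The question of how the genes start out in the knockout line was described without a test, because the wild-type control took part in the choice. The median member stood in CD33KO_shCTRL at 39.0% of its WT_shCTRL mean, against 94.4% for all genes at 5 CPM or more in WT_shCTRL. At most 12.5% was left in 25 members, against 0.91% of all genes, and at most 50% in 72 members, against 8.46%. Every CD33KO_shCTRL library lay below every WT_shCTRL library for 85 members, against 22.3% of all genes, above for 16 members, against 13.9%, and the libraries overlapped for 23. Of the 25 members at 12.5% or less, 6 were still called lower with the hairpin: PNOC, BIN1, GRM4, PENK, CD22 and TIMD4. The call on TIMD4 was lost without CD33KO_shCTRL replicate 3 (adjusted p = 0.189) or 6 (0.0576), and without CD33KO_shPTPN6 replicate 1 (0.111) or 3 (0.118). The other 19 of these included HAND2 at 3.95%, AXL at 6.24%, FCGBP at 1.42% and SAA1 at 0.838%.

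A smaller set had a higher starting level in the knockout line. The CD33KO_shCTRL mean was above the WT_shCTRL mean in 25 members, and 23 of these were called lower with the hairpin, the exceptions being IGDCC4 and HECW2. At least 2-fold higher were 7, against 4.18% of all genes: SERPINE2 at 3.52-fold, ISM1 at 3.06-fold, ERICD at 2.91-fold, MMP1 at 2.83-fold, APLNR at 2.58-fold, PCDH20 at 2.18-fold and LINC00472 at 2.17-fold. After knockdown, the CD33KO_shPTPN6 mean was above the WT_shPTPN6 mean in 88 members, against 44.4% of all genes at 5 CPM or more in WT_shCTRL, and at least 2-fold above it in 60, against 5.32%. The members were chosen for being low in WT_shPTPN6, so nothing is read from these counts. The CD33KO_shPTPN6 mean was at or under 12.5% of the WT_shCTRL mean in 56 members, against 1.73% of all genes, where the rule had fixed the WT_shCTRL side.

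**Figure D4:**
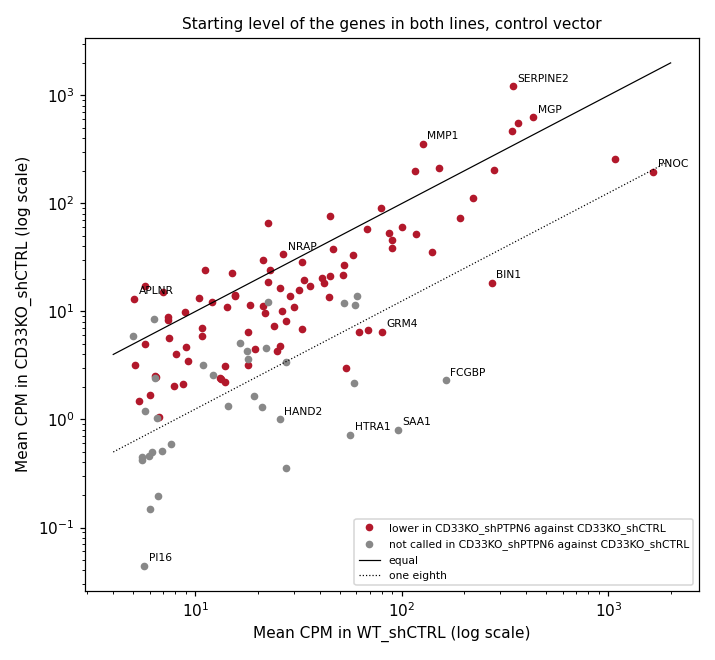
Each point is 1 of the 124 genes, with its mean CPM in WT_shCTRL on the horizontal axis and in CD33KO_shCTRL on the vertical axis, both logarithmic; the solid line marks equal levels, the dotted line 12.5%, and red points were called lower in CD33KO_shPTPN6 against CD33KO_shCTRL. The 25 genes on or under the dotted line include PNOC and BIN1, SERPINE2 and MMP1 lie well above the solid line, and most grey points are genes low in CD33KO_shCTRL.

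The 34 members that were not called were mainly those with few counts left. In 27 of them the CD33KO_shCTRL mean was under 5 CPM, and the 7 others were CMPK2, KCNMA1, RSAD2, SORCS2, SPINK2, IGDCC4 and HECW2. Ordered by mean level over all libraries, 23 of the 41 lowest members were called, 32 of the next 41 and 35 of the 42 highest. For the 7 with at least 5 CPM the log2 fold changes were -0.12 ± 0.19, -0.27 ± 0.20, 0.22 ± 0.18, -0.36 ± 0.20, -0.63 ± 0.31, -0.43 ± 0.27 and -0.32 ± 0.30 in that order. Some calls turned on 1 library. Without CD33KO_shPTPN6 replicate 4, SPINK2, MX1 and EN1 were called lower (adjusted p = 0.0107, 0.0347 and 0.0335), without replicate 3 COL11A1 and SEMA6A (0.0135 and 0.0323), and without replicate 6 SNAP91 and SEMA6A (0.00726 and 0.0297). Without CD33KO_shCTRL replicate 6, BBOX1 and SEMA6A were called lower (0.0375 and 0.0344), and BBOX1 also without replicate 4 (0.0363).

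Markers of cell identity were read in the same libraries, where 21.6% of all genes tested were lower and 20.5% higher in the knockout line. Of 13 tested macrophage markers, 7 were higher and 0 lower in the knockout line with the hairpin, with CSF1R, the M-CSF receptor, at 1.82 and CTSD, cathepsin D, at 1.10. Their summed level over 14 genes was 5711 to 5912 CPM in CD33KO_shPTPN6 and 3021 to 3261 CPM in CD33KO_shCTRL, against 6273 to 6861 CPM in WT_shPTPN6 and 4023 to 4402 CPM in WT_shCTRL. The 6 that did not pass were CD68, ITGAM, LYZ, CD163, FCGR1A and FCGR2A. In wild type 12 of the 13 were higher and 1 lower, FCER1G at -0.38. MRC1 was under 1 CPM in all 4 groups, and LYZ averaged 5.35 CPM in CD33KO_shPTPN6 and 3.50 CPM in CD33KO_shCTRL, against 223 CPM in WT_shPTPN6 and 27.1 CPM in WT_shCTRL. Of 7 tested markers of myeloid progenitors, 1 was lower, GFI1, and 2 were higher, RNASE2 and AZU1; the 13 genes summed to 133 to 151 CPM in CD33KO_shPTPN6 and 261 to 279 CPM in CD33KO_shCTRL, against 147 to 183 CPM in WT_shPTPN6 and 371 to 396 CPM in WT_shCTRL. Without the members GFI1 and SPINK2, the other 11 summed to 65.2 to 76.6 CPM in CD33KO_shPTPN6 and 44.2 to 61.9 CPM in CD33KO_shCTRL, against 132 to 164 CPM in WT_shPTPN6 and 209 to 231 CPM in WT_shCTRL. The part of these markers in the result was not tested.

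Other cell types were read through fixed lists, again in the knockout line, where 21.6% of all genes tested were lower and 20.5% higher. Of 6 tested T and NK cell genes 3 were lower, with GNLY and PRF1 the first 2, and 1 higher, NCAM1. Of 7 B cell genes 1 was lower, CD22. Of 5 HEK-293 or epithelial genes 1 was lower, CDH2, and 1 higher, CDH1. Of 9 fibroblast or endothelial genes 2 were lower, TIE1 and PDGFRA, and of 3 erythroid or megakaryocyte genes 1 was lower, PPBP. A fixed list of ITIM receptors and signalling partners of SHP-1 contained 0 members, but CD22, a member, was counted with the Siglecs instead. Among the 22 tested genes of this list, 2 were lower, PTPN6 and LILRB4, and 11 higher, among them PECAM1 at 0.94 and LYN at 0.94. In wild type 4 of these 22 were lower and 15 higher, where 30.4% of all genes tested were called lower and 30.2% higher.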

How the data were processed

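The submitters deposited 1 table of raw counts per gene, made per the submitters' processing notes with bcl2fastq, STAR 2.7.3a and featureCounts (Subread 2.0.0) on hg38; the annotation release and strand setting are not given in the sources used here. Those notes also name DESeq2 1.26.0 in R 3.6.1. Here CPM were computed from the counts and library totals, and group means set the 124 members. Differences were tested with edgeR 4.0.16 in R 4.3.3 (quasi-likelihood test, TMM scaling, filterByExpr by group, all 23 libraries, 1 mean per group, Benjamini-Hochberg adjustment over 13098 genes, threshold 0.05). SE is the log2 fold change over the root of F. The procedure was tested on simulated data. DESeq2 1.42.0, other scalings, no filter, the knockout libraries alone, a replicate block and leaving out each library were tried as alternatives. The members and lists were chosen with earlier results of these data known, and role groups and family lists after the members were seen. Named are the 20 members highest in WT_shCTRL, the 10 with the smallest adjusted p in the knockout line, genes nearest the thresholds, PTPN6, CD33 and up to 2 called genes per list and direction; other genes were named after their values were seen. Some genes enter the counts and are not reported by name here. Gene positions are from GENCODE 29. Counts are of reads, and their number limits the precision.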

Additional observations from a re-analysis of the deposited data

Results flagged for a closer look

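For the 21 genes given library by library, PTPN6, CD33 and the summed members, each group was searched for a library standing far from the rest. Of 96 groups, 9 had one. The cutoff would flag about 1 in 20 groups of normally distributed values. Groups with few counts are not of that kind, and a single count among zeros is always flagged, so nothing is read from the number of flags. DMP1 was at 70.8 CPM in WT_shCTRL replicate 3, with the nearest library at 57.8 CPM. MEPE was at 0.814 CPM in WT_shPTPN6 replicate 4, with the nearest at 0.160 CPM. MMP13 was at 0.387 CPM in CD33KO_shPTPN6 replicate 6, where the other libraries of the group had 0. BMP8B was at 272.4 CPM in CD33KO_shCTRL replicate 6, with the nearest at 257 CPM, and at 109.8 CPM in WT_shPTPN6 replicate 2, with the nearest at 116 CPM. TAC4 was at 1.46 CPM in CD33KO_shCTRL replicate 1, with the nearest at 0.458 CPM, at 0.160 CPM in WT_shPTPN6 replicate 1, where the others had 0, and at 3.94 CPM in WT_shCTRL replicate 5, with the nearest at 6.87 CPM. HAND2 was at 1.38 CPM in WT_shPTPN6 replicate 3, with the nearest at 0.603 CPM. The difference in response between the lines was not tested, because the rule had fixed the wild-type response.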

How the results depend on the processing

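The 90 members called lower in CD33KO_shPTPN6 became 89 with DESeq2, 90 with RLE size factors, 92 with library totals, 86 without the filter and 69 of the 75 members tested when only the knockout libraries were fitted; without 1 library at a time the count ran between 85 and 90. The 0 called higher became 1, HTRA1, without CD33KO_shCTRL replicate 6 or CD33KO_shPTPN6 replicate 5, and stayed 0 in the other fits. In all, 80 members were called lower in every fit that tested them. The calls on 10 were lost in at least 1 fit: TIMD4 and CYP26B1 as given above, PIPOX without CD33KO_shCTRL replicate 5 (adjusted p = 0.0623), FNDC1 without CD33KO_shPTPN6 replicate 6 (0.0657), RAG1 without CD33KO_shPTPN6 replicate 4 or 6 (0.0654 and 0.0748), GABRD without CD33KO_shCTRL replicate 4 or CD33KO_shPTPN6 replicate 5 (0.0570 and 0.0525), and, without any of several single libraries, SEPTIN4 (4 libraries, adjusted p up to 0.0609), COL13A1 (7, 0.108), RPL23AP32 (8, 0.139) and RGS4 (6, 0.131). With a replicate block the count was 90, of which 89 were the same genes. In the knockout line the deviations of same-numbered libraries from their group means had correlations of 0.003 to 0.025. Counting error in genes with few counts lowers such correlations, so whether the numbers pair the libraries was not settled. The rule gave 109 genes with TMM-scaled CPM, 91 with a floor of 10 CPM and 327 with a ratio of 25%, and 122 to 131 without 1 library. The same 124 members were also counted at a ratio of 25%. A CD33KO_shCTRL mean at 25% of WT_shCTRL or less was found in 46, where 25 had one at 12.5% or less. A CD33KO_shPTPN6 mean at 25% of WT_shCTRL or less was found in 93, where 56 had one at 12.5% or less. Without 1 library the counts at 12.5% ran between 24 and 25 and between 53 and 59. The sign of 9 uncalled log2 fold changes turned when 1 library was left out: FCGBP (-0.14 to 0.47), CMPK2 (-0.34 to 0.0522), CMKLR1 (-0.69 to 0.0363), THBS2 (-0.47 to 0.13), LIMCH1 (-0.47 to 0.0392), RAB44 (-0.28 to 0.12, and 0.0160 with the replicate block), PPP1R27 (-0.48 to 0.17), MOXD1 (-0.0559 to 0.74) and LRRC15 (-0.73 to 0.56). The cause was not tested.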
